A study of Mus musculus with 18 samples.

Results

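The comparison of PS473@NKMOF-101-[Mn] with NKMOF-101-[Mn] sets tumors that received an active ribozyme inside a manganese framework against tumors that received the same framework empty. It asks what the ribozyme cargo adds once the framework is held constant. The members were taken from the sample titles and comprise 6 of the 18 sequenced tumors, 3 in each group. All tumors were grown from B16F10 mouse melanoma cells placed under the skin of female C57BL/6 mice, in the right flank. Treatment began on day 6, at a tumor volume of about 50 mm3, and was injected into the tumor every 2 days, and the tumors were collected 48 h after the last injection. By the treatment description both groups therefore share the cells, the host, the route, the schedule and the framework. The framework is built from Mn2+ and a squarate linker, and by design the groups differ in the RNA it carried. The paper reports lower final tumor weights with the loaded framework than with the empty one. Sizes of the sequenced tumors are not in the labels, and the part of size in the values below was not tested. The titles of the ribozyme-loaded tumors spell the framework NKMOF-102-[Mn], whereas the treatment description of the same records spells it NKMOF-101-[Mn]. Nothing in the labels says whether the tumors came from separate mice, so p-values measure the spread between these tumors. Whole tumors were sequenced after poly(A) selection, and values are FPKM, which scale fragments by gene length and by the fragments assigned in a tumor.

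Pistol ribozymes are small self-cleaving RNAs that can be split so that the catalytic strand pairs with a separate RNA and cuts it at a GU dinucleotide. Divalent metal ions assist the reaction. PS473 was designed against the mRNA of Cd274, which encodes PD-L1, the ligand through which tumor cells restrain T cells carrying PD-1, and which interferon-gamma induces. RNA delivered into cells can also be read by RNA sensors such as RIG-I, which induce interferon-stimulated genes, and manganese ions are known to sensitize the cGAS-STING pathway of DNA sensing.

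The sequences of the active ribozyme in its shorter listed form, of the inactive ribozyme M5 and of the target are given here. Each is printed 5′ to 3′. Capitals mark the bases at which M5 differs from PS473 and, in the target, the GU at which the cut is made:
PS473: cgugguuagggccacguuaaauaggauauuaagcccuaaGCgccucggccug
M5: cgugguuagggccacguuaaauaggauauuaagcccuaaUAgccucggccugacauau
Cd274 target: caggccgaggGUuauc
Counted from 1 at the 5′ end of the ribozyme, M5 carries G40U and C41A, and its 3′ end is longer by 6 bases than that of the printed PS473. The target has 16 bases and occurs 1 time in the Cd274 coding sequence, at chr19:29380372-29380387 on the plus strand of build GRCm38, inside exon 4 of 7. The 10 target bases before the GU are complementary to the 3′ end of PS473. The study's sequence list also holds an extended form of 76 bases, PS473-16. In the paper, PS473 stands for PS473-16 after the first cell experiments, and M5 is said to share its recognition domain. By that naming the injected form was PS473-16, though the labels do not say which form was injected. The 6-base difference holds for the printed form of 52 bases only.

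No gene passed the threshold set for a call, an adjusted p under 0.05 in limma with Benjamini-Hochberg adjustment and a fold change above 2, among the 12357 genes tested (0% called). The smallest adjusted p was 0.999. At an unadjusted limma p under 0.05, 62 genes were higher in PS473@NKMOF-101-[Mn] (0.502% of genes tested) and 222 were lower (1.8%). With a fold change above 2 as well, 1 gene was higher (0.00809%) and 36 were lower (0.291%). That split depended on the scaling, with 174 higher and 108 lower under quantile normalization, and 121 higher and 154 lower under upper-quartile scaling. When PS473@NKMOF-101-[Mn] tumor 3 was left out it was 155 higher and 84 lower. The groups did not overlap for 298 genes that were higher (2.41%) and 680 that were lower (5.5%). The values below are therefore descriptions of groups of 3 tumors, and no single gene is called changed. The median log2 fold change over the genes tested was -0.04.

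**Figure D1:**
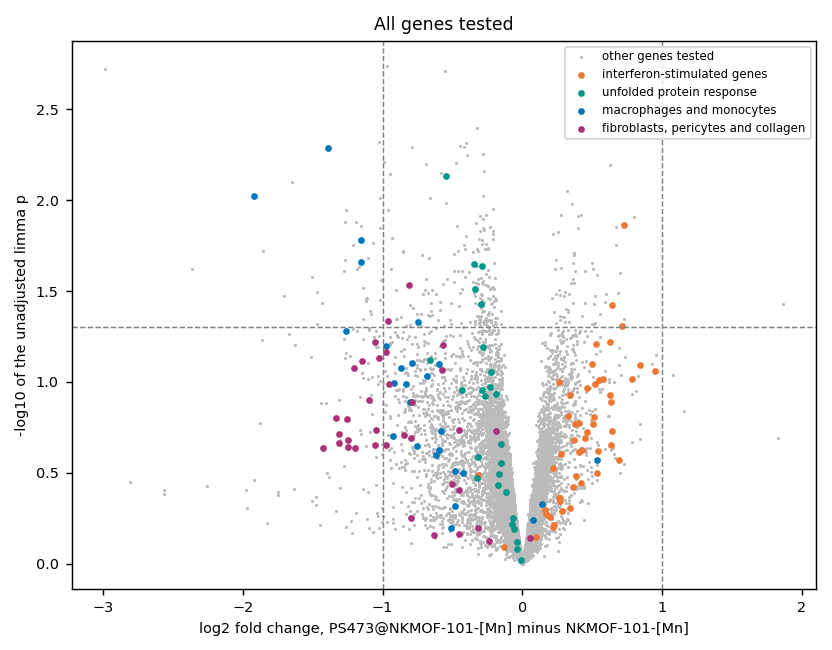
Each point is a gene tested, with the log2 fold change of PS473@NKMOF-101-[Mn] minus NKMOF-101-[Mn] on the horizontal axis and -log10 of the unadjusted limma p on the vertical axis, and dashed lines at a p of 0.05 and a fold of 2. Of the 50 interferon-stimulated genes 48 lie right of 0, the 26 unfolded protein response genes lie left of 0 (24 of them under quantile normalization), and macrophage and fibroblast genes spread to the left.

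Several tumors stood apart. Fragments assigned to genes, recovered from the steps between low values, ranged from 17770000 to 23647000 in the 6 tumors. Skin epithelium transcripts were uneven: Krt14, a keratin of basal skin cells, was at 375, 0 and 52.7 FPKM in NKMOF-101-[Mn] tumors 1 to 3 and at 0.162, 75.7 and 4.07 FPKM in PS473@NKMOF-101-[Mn] tumors 1 to 3. The tumor with most skin RNA in each group is thus NKMOF-101-[Mn] tumor 1 and PS473@NKMOF-101-[Mn] tumor 2, and the 33 listed skin genes, tested or not, had mean log2(FPKM + 1) levels of 4.21, 0.18 and 1.59 against 0.18, 2.68 and 0.60. Globin RNA ran the other way in PS473@NKMOF-101-[Mn] tumor 2, where Hba-a1 was at 15.4 FPKM, against 2769 and 1541 FPKM in the other two tumors of its group. PS473@NKMOF-101-[Mn] tumor 3 had the lowest value of the 6 in 4830 of the 12357 genes and the highest in 2548, the most of the 6 on both counts. The part of these differences in the results below was not tested, and values without both skin-rich tumors, a setting chosen after seeing the data, are given where they matter. The melanoma label held: Pmel was at 1109 to 1471 FPKM in the empty-framework tumors and at 1482 to 1631 FPKM in the loaded ones.

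A difference in the target itself was not detectable. Cd274 was at 14.1, 14.6 and 15.9 FPKM with the empty framework and at 17.0, 32.9 and 9.74 FPKM with the loaded one. The loaded tumors lie on both sides of the empty ones, and 1 of them, tumor 2, is the highest of the 6. The means were 14.9 ± 0.945 and 19.9 ± 11.9 FPKM (SD, 3 tumors each), and a two-sided exact permutation test of the difference gave p = 0.7, where 0.1 is the smallest value that 20 splits allow. On the log2(FPKM + 1) scale the difference was 0.24 (SE 0.34), with a 95% confidence interval from -0.48 to 0.96. When PS473@NKMOF-101-[Mn] tumor 2 was left out it was -0.19, and without both skin-rich tumors it was -0.23. Side by side, M5@NKMOF-101-[Mn] minus NKMOF-101-[Mn], which shares the empty-framework tumors, gave 0.63, and Free PS473 minus PBS gave -0.33. Among 20 genes of the JAK-STAT machinery that controls Cd274 transcription, 10 were higher and the median difference was 0.01, which was -0.16 when PS473@NKMOF-101-[Mn] tumor 2 was left out. Of the 11 checkpoint genes tested, 2 were higher, Cd274 and Lgals9. Vsir, which encodes the checkpoint VISTA, was at 3.02, 1.5 and 2.31 FPKM against 0.778, 1.45 and 0.815 FPKM, a difference of -0.69 (SE 0.28).

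**Figure D2:**
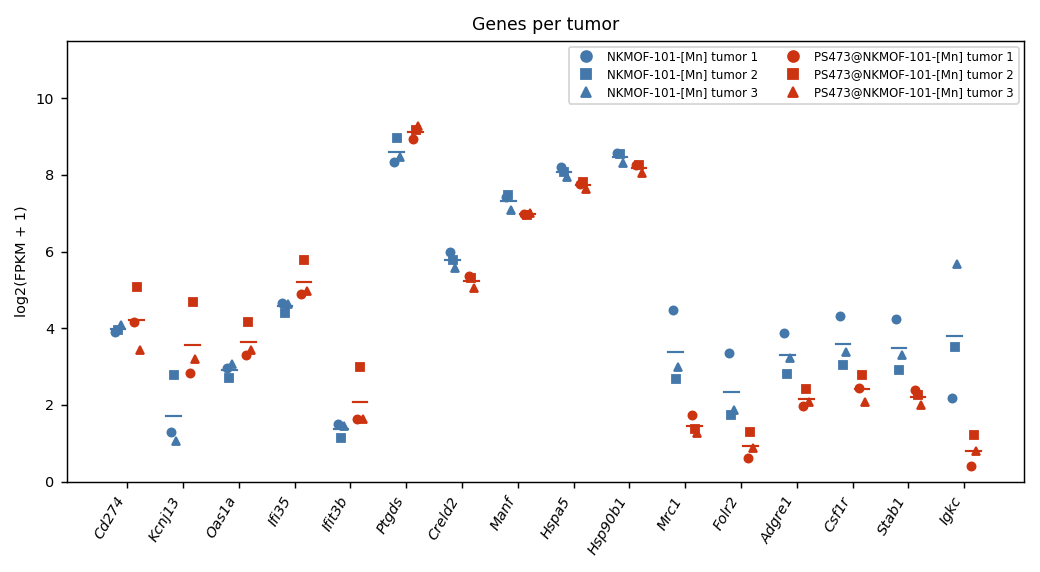
Levels of 16 genes as log2(FPKM + 1) in each tumor, with blue for NKMOF-101-[Mn], red for PS473@NKMOF-101-[Mn], a marker shape for each tumor and a line at each group mean. PS473@NKMOF-101-[Mn] tumor 2 is the highest of the 6 for Cd274, Kcnj13, Oas1a, Ifi35 and Ifit3b, whereas Creld2, Manf, Hspa5 and Hsp90b1 are tight in both groups.

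Interferon-stimulated genes leaned higher with the loaded framework, with 1 tumor well above the rest. Of 50 tested, 48 had a positive difference, 3 (Oas1a, Ifi35 and Ifit3b) passed an unadjusted p of 0.05, 0 were lower at that p, and the median difference was 0.42. Among all genes tested, 0.502% were higher at that p. The mean log2(FPKM + 1) level of the list, its 54 genes tested or not, was 3.12, 2.64 and 3.11 with the empty framework and 3.08, 4.14 and 2.82 with the loaded one, so that tumor 2 is high and the other two lie within or near the empty range. Oas1a, an activator of RNase L that senses double-stranded RNA, was at 6.82, 5.47 and 7.41 FPKM against 8.94, 16.8 and 9.86 FPKM, with no overlap (difference 0.73, SE 0.26). Ifi35, an interferon-induced protein, was at 24.1, 20.2 and 23.9 FPKM against 28.8, 53.7 and 30.1 FPKM (0.64, SE 0.28), and Ifit3b had a difference of 0.72 (SE 0.33). Ifitm3, an antiviral membrane protein and among the most abundant of the list, was at 207, 193 and 256 FPKM against 264, 467 and 248 FPKM. With PS473@NKMOF-101-[Mn] tumor 2 left out the list median was 0.06 with 30 of 50 positive and 0 past that p, and with its tumor 3 left out 0.74 with 28 past it. Leaving out PS473@NKMOF-101-[Mn] tumor 1 gave 7 past it, NKMOF-101-[Mn] tumor 1 gave 1 and NKMOF-101-[Mn] tumor 2 gave 0, and without both skin-rich tumors the median was 0.11 with 35 positive and 0 past it. Quantile normalization gave 10 past it with a median of 0.50, and upper-quartile scaling 5 with 0.44.

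RNA sensors, a list that shares members with the interferon-stimulated genes, leaned higher, as did the genes downstream of interferon-gamma. The cGAS-STING list did not. Rigi, which encodes the RNA sensor RIG-I, was at 4.93, 3.26 and 4.89 FPKM with the empty framework and at 5.95, 12.5 and 5.55 FPKM with the loaded one, a difference of 0.68 (SE 0.29) with no overlap. Mavs, the adaptor of RIG-I, also did not overlap, at 8.56, 9.07 and 9.39 FPKM against 9.74, 10.8 and 10.2 FPKM, with a difference of 0.17. In the list of 23 RNA sensors and adaptors 15 had a positive difference and the median was 0.16. Oas1a, Oas2 and Irf7 are also in the interferon-stimulated list, so Oas1a is counted in both. At an unadjusted p under 0.05, 2 (Oas1a and Rigi) were higher and 1, Irf5, lower, beside 0.502% higher and 1.8% lower of all genes tested. The count of 2 was 0 when PS473@NKMOF-101-[Mn] tumor 2 or NKMOF-101-[Mn] tumor 2 was left out, 5 for PS473@NKMOF-101-[Mn] tumor 1 and 6 for its tumor 3. Without both skin-rich tumors it was 0 with a median of 0.01, and quantile normalization gave 5. Of 14 cGAS-STING genes 4 had a positive and 10 a negative difference, with a median of -0.06 that was 0.01 under quantile normalization and 0.04 when PS473@NKMOF-101-[Mn] tumor 3 was left out. At that p 0 passed as higher and 1 passed as lower, Slc19a1, a carrier of folates and of the cyclic dinucleotides that activate STING, at 3.31, 2.97 and 4.22 FPKM against 2.89, 2.64 and 2.5 FPKM (-0.28, SE 0.12). Its groups did not overlap, and it did not pass under quantile normalization or without both skin-rich tumors. The interferon-gamma-induced GTPases and chemokines were higher in 17 of 20 genes with a median of 0.32, which was -0.14 without both skin-rich tumors and ran from -0.19 with PS473@NKMOF-101-[Mn] tumor 2 left out to 0.84 with its tumor 3 left out. MHC class I genes had a median of 0.13 and MHC class II genes of 0.22, and these were -0.16 and -0.19 without both skin-rich tumors. Cd74, the invariant chain of MHC class II, stood at 222, 188 and 156 FPKM against 190, 518 and 123 FPKM.

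**Figure D3:**
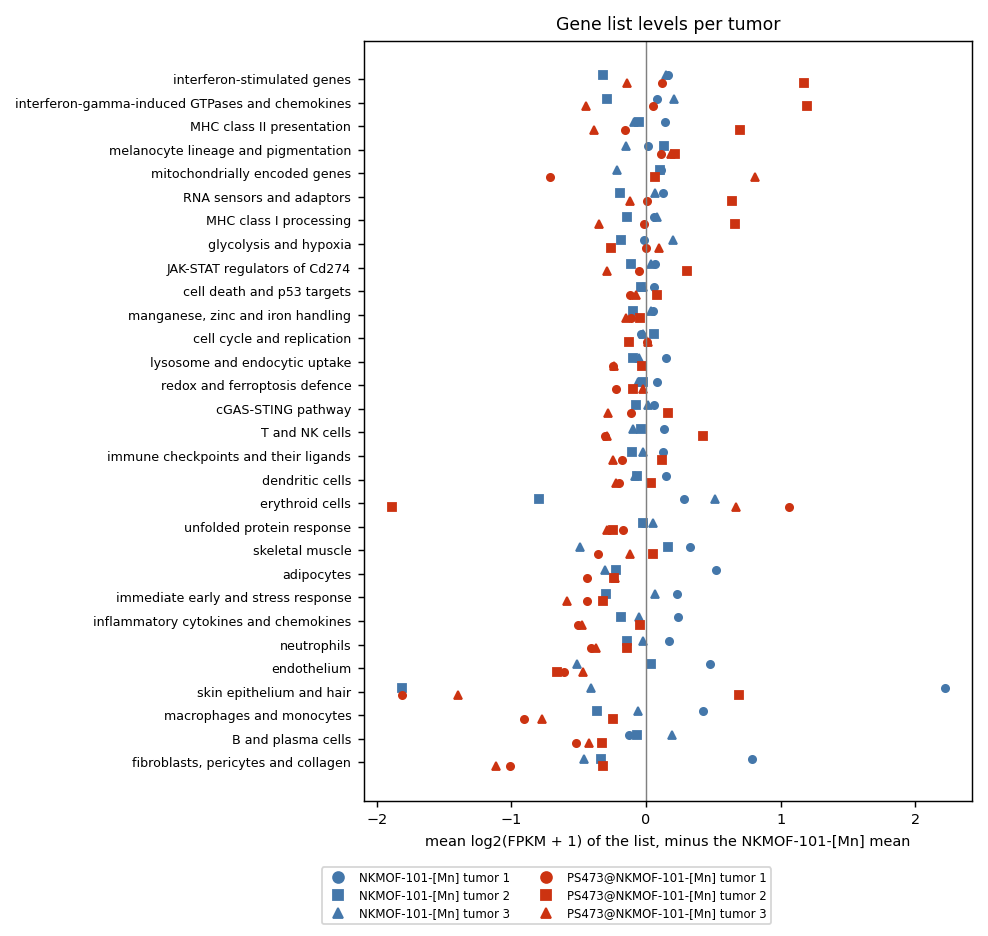
For each of 30 gene lists, the mean log2(FPKM + 1) of its genes, tested or not, in each tumor minus the mean of the 3 NKMOF-101-[Mn] tumors, with blue for NKMOF-101-[Mn], red for PS473@NKMOF-101-[Mn] and a marker shape for each tumor. The unfolded protein response level is lower in each red tumor than in each blue one, while the interferon lists are highest in PS473@NKMOF-101-[Mn] tumor 2.

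The unfolded protein response, by which cells raise endoplasmic reticulum chaperones when secretory proteins misfold, was lower by a small amount. All 26 genes tested had a lower mean with the loaded framework (24 under quantile normalization and 25 under upper-quartile scaling), 5 (Creld2, Hspa5, Hsp90b1, Manf and Xbp1) passed an unadjusted limma p of 0.05, and 9 did not overlap. Over all genes tested, 1.8% were lower at that p and 5.5% were lower without overlap. The mean level of the list was 5.23, 5.23 and 5.31 in the empty-framework tumors and 5.08, 5.01 and 4.97 in the loaded ones. The median difference was small, -0.23 beside -0.04 over all genes tested, and ranged from -0.27 to -0.20 with each tumor left out in turn, with 3 to 6 genes past the unadjusted p, 3 of them without NKMOF-101-[Mn] tumor 1, NKMOF-101-[Mn] tumor 2 or PS473@NKMOF-101-[Mn] tumor 3. Without both skin-rich tumors it was -0.24, with 0 genes past the unadjusted p. Creld2, a chaperone-associated protein, was at 62.8, 53.9 and 46.5 FPKM against 40.2, 38.4 and 32.1 FPKM (difference -0.54, SE 0.17). Hspa5, which encodes the chaperone BiP, was at 296, 271 and 245 FPKM against 216, 225 and 196 FPKM (-0.35, SE 0.14). Both genes separate the groups fully. Hsp90b1, which encodes the chaperone GRP94, was at 378, 370 and 315 FPKM against 303, 303 and 264 FPKM (-0.29, SE 0.11). Manf, a secreted stress-response factor, was at 170, 176 and 135 FPKM against 126, 124 and 128 FPKM (-0.34, SE 0.14). Xbp1, the transcription factor of the IRE1 branch, was at 36.1, 32.6 and 29.6 FPKM against 25.0, 29.1 and 25.4 FPKM (-0.30, SE 0.13).

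Because chaperone genes of this response are known to share an endoplasmic reticulum stress element, their promoters were searched for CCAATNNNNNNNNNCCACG on both strands, a motif chosen after the values were seen. In windows from 250 bases before to 50 bases after the gene start (RefSeq, GRCm38.p6), 6 of 23 unfolded protein response genes with a window held it (26.09%), as did 17 of 9214 genes tested (0.1845%) and 39 of all 32851 windows (0.1187%). The 17 include these 6. Because the motif is known from such genes, its share among them is not a result about these tumors. Creld2, Hspa5 and Hsp90b1 are among the 6, the others being Calr, Dnajc3 and Pdia6. Of the 6 these 3 passed the unadjusted p, which is why their windows are shown, with the motif in capitals:
Creld2, chr15:88819396-88819695, plus strand: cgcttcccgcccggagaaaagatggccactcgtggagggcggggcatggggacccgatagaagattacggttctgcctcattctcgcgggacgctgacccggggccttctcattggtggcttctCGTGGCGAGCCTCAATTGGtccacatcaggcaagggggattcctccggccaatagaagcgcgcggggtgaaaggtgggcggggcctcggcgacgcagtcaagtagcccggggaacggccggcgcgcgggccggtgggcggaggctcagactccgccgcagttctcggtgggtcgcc
Hspa5, chr2:34771840-34772139, plus strand: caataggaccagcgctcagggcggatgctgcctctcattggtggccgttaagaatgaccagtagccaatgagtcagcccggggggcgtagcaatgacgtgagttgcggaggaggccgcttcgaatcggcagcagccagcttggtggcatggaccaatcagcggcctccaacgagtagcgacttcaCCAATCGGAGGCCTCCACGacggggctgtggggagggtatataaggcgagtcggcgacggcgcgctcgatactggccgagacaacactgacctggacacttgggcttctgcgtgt
Hsp90b1, chr10:86705395-86705694, minus strand: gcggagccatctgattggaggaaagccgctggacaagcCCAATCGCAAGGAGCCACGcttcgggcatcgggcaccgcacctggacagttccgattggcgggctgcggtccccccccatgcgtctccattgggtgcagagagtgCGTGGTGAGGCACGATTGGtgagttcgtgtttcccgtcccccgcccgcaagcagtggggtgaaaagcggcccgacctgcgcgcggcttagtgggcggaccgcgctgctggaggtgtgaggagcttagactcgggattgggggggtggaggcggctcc
The match starts 126 bases before the gene start in Creld2, as the reverse complement, and 65 bases before it in Hspa5. Hsp90b1 holds 2 matches, which start 212 and 107 bases before the gene start. Calr carries the motif too, and was at 408, 429 and 400 FPKM against 398, 395 and 389 FPKM, a difference of -0.06, also with no overlap.

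Macrophage genes were lower with the loaded framework. Of 26 tested, 23 had a lower mean, 5 (Folr2, Mrc1, Adgre1, Csf1r and Cd68) passed an unadjusted limma p of 0.05 and 7 did not overlap, with a median difference of -0.75. The shares over all genes tested were 1.8% lower at that p and 5.5% lower without overlap. In whole tumors, fewer cells of a type and less RNA per cell cannot be told apart. Mrc1, the mannose receptor CD206 of tissue-resident and alternatively activated macrophages, was at 21.4, 5.34 and 6.91 FPKM against 2.33, 1.57 and 1.42 FPKM (difference -1.92, SE 0.64). Folr2, a folate receptor of resident macrophages, was at 9.31, 2.35 and 2.64 FPKM against 0.542, 1.46 and 0.841 FPKM (-1.39, SE 0.42). For both genes NKMOF-101-[Mn] tumor 1 was the highest of the 6, and the groups did not overlap. Adgre1, which encodes the pan-macrophage marker F4/80, was at 13.7, 6.05 and 8.42 FPKM against 2.89, 4.35 and 3.22 FPKM (-1.16, SE 0.43). Csf1r, the receptor on which macrophages depend for survival, was at 18.9, 7.27 and 9.37 FPKM against 4.38, 5.81 and 3.22 FPKM (-1.16, SE 0.45). Stab1, a scavenger receptor of resident macrophages and of some endothelium, is listed with the lysosomal genes and is not among the 26. It was at 17.9, 6.55 and 8.78 FPKM against 4.22, 3.78 and 2.98 FPKM (-1.27, SE 0.45). Not every macrophage gene followed, since Apoe was at 194, 208 and 138 FPKM against 170, 191 and 229 FPKM. Gpnmb, the most abundant of the list, was at 864, 929 and 967 FPKM against 1024, 1038 and 859 FPKM. Without NKMOF-101-[Mn] tumor 1 the median was -0.58 with 1 gene past the unadjusted p, the count was 8 without NKMOF-101-[Mn] tumor 2, 10 without PS473@NKMOF-101-[Mn] tumor 2 and 3 without PS473@NKMOF-101-[Mn] tumor 3, and without both skin-rich tumors the median was -0.88 with 1 gene. The count also moved with the spread that tumors outside the comparison lend to the fit, to 8 without Free PS473 tumor 2, 13 without Free PS473 tumor 3 and 13 with the 6 tumors fitted alone.

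Other immune lists gave fewer or thinner values. Immunoglobulin transcripts were lower: Igkc, the kappa light chain constant region, was at 3.56, 10.3 and 50.3 FPKM against 0.33, 1.30 and 0.752 FPKM (-2.98, SE 0.79), the lowest and highest of the empty-framework tumors differing widely. Of 5 B and plasma cell genes tested, 3 were lower at an unadjusted p under 0.05, Igkc, Ighm and Xbp1, the last also a member of the unfolded protein response list, and 1 passed without PS473@NKMOF-101-[Mn] tumor 1 or tumor 3. Lower genes at that p made up 1.8% of all genes tested. T cell coverage was low, with Cd3e, Cd3d, Cd8a and Cd4 all under the mean of 1 FPKM needed for testing. Of the 10 T and NK genes tested 2 were higher, and Gzmb, a killer-cell granule protease, was at 1.44, 1.01 and 2.75 FPKM against 1.06, 6.81 and 1.08 FPKM. Of 25 cytokines and chemokines 3 were higher, with a median of -0.54, and Pf4, a platelet and macrophage chemokine, was at 30.4, 11.4 and 22.1 FPKM against 4.72, 7.14 and 4.61 FPKM (-1.70, SE 0.73).

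Stromal and vascular genes were lower as well, with few single genes past the unadjusted p. Of 35 fibroblast, pericyte and collagen genes 34 were lower, 2 passed, 10 did not overlap, and the median was -0.96. The 2 were Col15a1 and Rgs5, and with a tumor left out the count was 4 without NKMOF-101-[Mn] tumor 3, 0 without NKMOF-101-[Mn] tumor 1 or PS473@NKMOF-101-[Mn] tumor 3, and 1 without each of the others. For comparison, 1.8% of all genes tested were lower at the unadjusted p and 5.5% lower without overlap. Mean levels of the fibroblast list were 4.31, 3.19 and 3.07 with the empty framework and 2.51, 3.20 and 2.41 with the loaded one. Its median was -0.48 without NKMOF-101-[Mn] tumor 1 and -0.79 without both skin-rich tumors. Col15a1, a basement membrane collagen, was at 18.3, 12.9 and 9.52 FPKM against 9.19, 7.68 and 4.86 FPKM (-0.82, SE 0.34), and Rgs5, a pericyte marker, was at 22, 10.7 and 9.89 FPKM against 5.77, 6.88 and 6.47 FPKM (-0.96, SE 0.44). All 19 endothelial genes were lower (18 under upper-quartile scaling) and 7 did not overlap, yet 0 passed, with a median of -0.68 that was -0.27 without both skin-rich tumors, and 6 passed without NKMOF-101-[Mn] tumor 3. Pecam1, the endothelial adhesion molecule CD31, ran at 18.1, 11.2 and 5.97 FPKM against 4.57, 3.61 and 5.62 FPKM. Immediate early genes were lower in 27 of 28, with 8 that did not overlap, among them Ccn2, a target of YAP signaling, at 30.8, 16.1 and 22.1 FPKM against 7.92, 9.05 and 5.10 FPKM (-1.51, SE 0.61).

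Genes of the melanocyte lineage leaned the other way. Of 27 tested, 22 were higher, the median was 0.21 and 4 did not overlap in that direction, Trpm1, Rab27a, Mc1r and Pmel. In all genes tested, the share higher without overlap was 2.41%. At an unadjusted limma p under 0.05, 0.502% of all genes tested were higher and 1.8% lower in the reported fit. Trpm1, a melanocyte cation channel, was at 29.0, 53.3 and 30.9 FPKM against 56.4, 62.9 and 64.3 FPKM (not past the unadjusted threshold, difference 0.74, SE 0.38). Ptgds, a prostaglandin D synthase expressed in melanocytes, was at 323, 497 and 350 FPKM against 490, 570 and 615 FPKM (0.54, SE 0.22), with overlap, and was the 1 member past the unadjusted p as higher. The list median ran from 0.18 to 0.35 with each tumor of both groups left out in turn, the highest without NKMOF-101-[Mn] tumor 2, where 5 members passed as higher. The number was 2 with PS473@NKMOF-101-[Mn] tumor 1 left out and 0 with any of the others, and without both skin-rich tumors it was 0 with a median of 0.16. The 6 tumors fitted alone gave 6. Kit, the stem cell factor receptor, was the 1 member past the unadjusted p as lower. It was at 2.36, 1.42 and 0.932 FPKM against 0.735, 0.602 and 1.06 FPKM (-0.49, SE 0.20). Kcnj13, a potassium channel, was the 1 gene higher by more than 2-fold at an unadjusted p under 0.05, at 1.47, 5.84 and 1.07 FPKM against 6.10, 24.8 and 8.11 FPKM (1.86, SE 0.81).

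Lists tied to the metal and to cell growth sat close to the median of all genes. The 34 genes of manganese, zinc and iron handling had a median of -0.03. At an unadjusted limma p under 0.05, 1 of the 34 was lower, beside 1.8% of all genes tested. That count is near the share over all genes and is not read as a result about the list. The gene was Tmem165, a Golgi manganese transporter, at 36.7, 37.7 and 36.3 FPKM against 33.0, 34.5 and 28.9 FPKM (-0.20, SE 0.09). The medians were -0.05 for 36 redox genes, -0.04 for 42 cell cycle genes, -0.03 for 32 cell death genes and 0.03 for 31 glycolysis genes. Lysosomal genes (29) had a median of -0.04 and mitochondrially encoded genes (13) of 0.19. Lists of other cells that a tumor sample can hold had medians of -0.59 for 9 neutrophil genes, -0.15 for 6 dendritic cell genes, -0.32 for 8 muscle genes, -0.40 for 11 adipocyte genes, -0.21 for 7 erythroid genes and -0.73 for the 24 skin genes. Without both skin-rich tumors these medians were -0.61, -0.24, 0.01, -0.04, 2.19 and -0.34 in the same order, and the erythroid median ran from -1.35 to 1.80 with each tumor left out in turn, the ends being PS473@NKMOF-101-[Mn] tumors 1 and 2. In the glycolysis list Aldoc, an aldolase, was at 22.7, 24.7 and 21.4 FPKM against 31.3, 25.5 and 44.3 FPKM (0.50, SE 0.20).

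**Figure D4:**
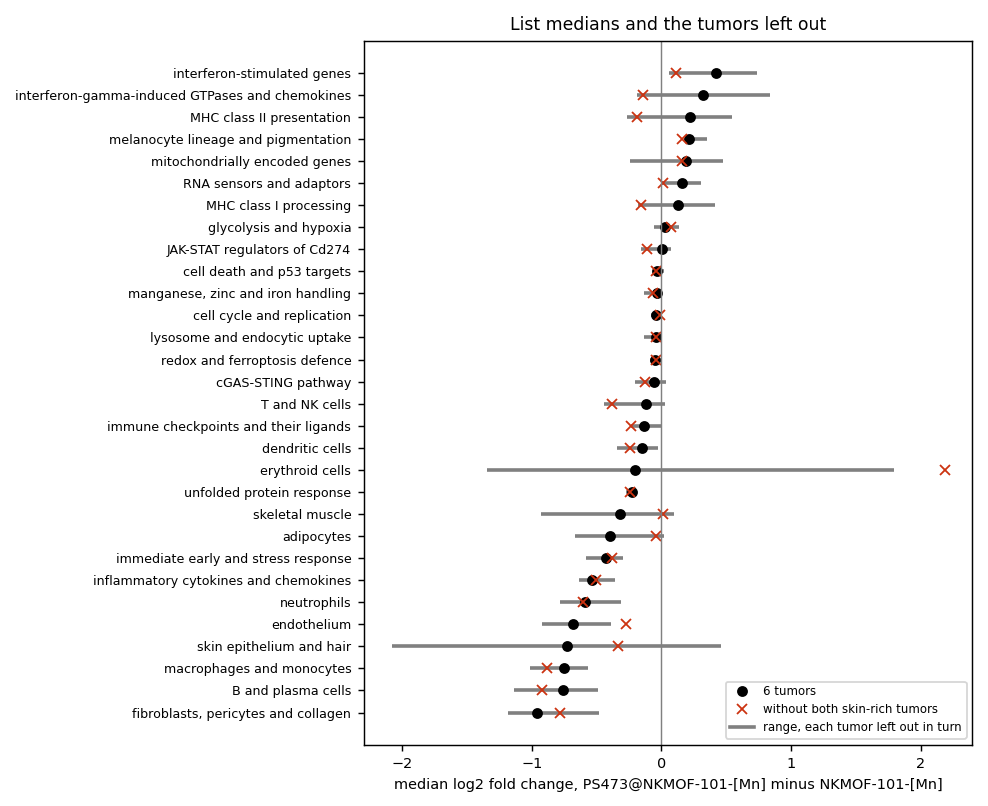
Median log2 fold change of each list, PS473@NKMOF-101-[Mn] minus NKMOF-101-[Mn], with black points for the 6 tumors, red crosses without both skin-rich tumors and grey bars for the range with each tumor left out in turn. The unfolded protein response range is -0.27 to -0.20, whereas the skin range runs from -2.08 to 0.46.

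Short genes, many of them small RNA genes, made up much of the lower group. Of the 36 genes lower by more than 2-fold at an unadjusted p under 0.05, 19 measured under 300 bases (52.8%), a share that was 4.16%, or 514 genes, among all tested. Their median length was 131 bases, and that of all tested genes 3970. Igkj1, of 38 bases, is an immunoglobulin segment. Snord88c, a small nucleolar RNA, was at 4.09, 4.69 and 5.19 FPKM against 2.27, 2.97 and 0 FPKM. Gm23201 was at 25.9, 21.9 and 22.6 FPKM against 19.2, 20.7 and 0.55 FPKM, so PS473@NKMOF-101-[Mn] tumor 3 weighs heavily in such genes. In Gm22711 the lowest was tumor 1, and in Snord23 tumor 2. Without tumor 3, 23 genes of any length passed, 12 of them among the 37 of the reported fit, and the short ones were not counted. The libraries were selected for poly(A) and for fragment size. PS473@NKMOF-101-[Mn] tumor 3 was also the source of TrnK, a transfer RNA listed at 91.3 FPKM there and at 0.325 to 0.943 FPKM in the other 5 tumors.

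The inactive ribozyme in the same framework allows a test of one cargo against the other. Between the PS473-loaded and the M5-loaded tumors limma gave 0 genes past the adjusted threshold, with 33 genes higher (0.267%) and 40 lower (0.324%) at an unadjusted limma p under 0.05. The differences of the loaded framework from the empty one and of M5@NKMOF-101-[Mn] from the empty one share the 3 empty tumors and are given side by side. Kcnj13 had 1.86 and 2.20. Mrc1 had -1.92 and -1.81, Folr2 -1.39 and -1.28, Stab1 -1.27 and -1.25, Adgre1 -1.16 and -0.69, and Csf1r -1.16 and -0.73. Creld2 had -0.54 and -0.46, Hspa5 -0.35 and -0.22, Manf -0.34 and -0.26, Xbp1 -0.30 and -0.23, and Hsp90b1 -0.29 and -0.09. List medians were 0.42 and 0.35 for interferon-stimulated genes, -0.96 and -1.07 for fibroblast genes, -0.68 and -0.80 for endothelium, -0.75 and -0.27 for macrophages and -0.23 and -0.15 for the unfolded protein response. Between the ribozymes, 0 of the 26 macrophage and 0 of the 50 interferon-stimulated genes passed an unadjusted p of 0.05, which does not show that they act alike. The listed genes that did were 1 of the unfolded protein response (Asns, higher with PS473), and, lower with PS473, 1 gene of the RNA sensor list (Rnaset2b, whose reads a near-identical copy can share), 1 of metal handling (Slc30a1), 2 glycolysis and hypoxia genes (Adm and P4ha1) and 2 lysosomal genes (Ctsa and Lipa).

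Whether the ribozyme acted differently with the framework than without it was tested as the difference between PS473@NKMOF-101-[Mn] minus NKMOF-101-[Mn] and Free PS473 minus PBS, which share no tumor. It gave 0 adjusted calls, and at an unadjusted limma p under 0.05 it gave 84 genes higher (0.68%) and 247 lower (2%). Interferon-stimulated genes held 18 of the higher ones among 50 tested, with a median interaction of 0.89, made of 0.42 with the framework and -0.47 without it. Ifitm3 had the smallest p of them, with an interaction of 1.31 (SE 0.37). The count of 18 was 5 with PS473@NKMOF-101-[Mn] tumor 2 left out, 6 with NKMOF-101-[Mn] tumor 2, 7 with PBS tumor 1, 8 with Free PS473 tumor 2 and 35 with PS473@NKMOF-101-[Mn] tumor 3, and it was 3 without both skin-rich tumors. That setting drops tumors of the framework groups only. PBS tumors 2 and 3 and Free PS473 tumor 3 stay in, with skin list levels of 4.92, 4.02 and 2.72. The skin list median of Free PS473 minus PBS was -2.66, and its part in the interaction was not tested. In the unfolded protein response, 6 of 26 genes were lower in the interaction, led by Creld2 at -0.88 (SE 0.25), with list medians of -0.23 with the framework and 0.12 without it. That count lay between 4 and 10 with each tumor of the contrast left out, the highest without Free PS473 tumor 2, and was 3 without both skin-rich tumors. Of macrophage genes 2 were lower, Folr2 at -1.66 (SE 0.60) and Mrc1 at -2.10 (SE 0.91). The number was 1 when NKMOF-101-[Mn] tumor 1, PS473@NKMOF-101-[Mn] tumor 2 or 3, PBS tumor 1 or Free PS473 tumor 3 was left out, 4 for Free PS473 tumor 2, and 1 without both skin-rich tumors. The median interaction of the macrophage list, -0.31, turned to 0.27 with Free PS473 tumor 3 left out.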

How the data were processed

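The authors deposited FPKM values for 41079 genes in 18 tumors, made from poly(A)-selected libraries. The submitters' processing notes name genome build GRCm39, while the aligner, counter and annotation are not given in the sources used here. Sequences were placed on GRCm38. Columns were matched to tumors by title, and 0 columns of tumor values were left unused. Low values were whole fragments for 47.2% to 51.2% of genes in a tumor (tolerance 0.02), so no count model was used. Values were taken as log2(FPKM + 1), which understates the change of low genes, and 12357 genes, those averaging 1 FPKM or more across the 18 tumors, were fitted with limma 3.58.1 in R 4.3.3, with 1 mean per group, 18 tumors and a trend in the prior variance. Benjamini-Hochberg adjustment was made separately for each comparison. The procedure was tested on simulated data. Python 3.11.15 drew the figures.

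The members and gene lists were chosen with earlier results of these data known. Named genes were Cd274, up to 10 genes of smallest p in each direction above 2-fold, up to 4 members of each list at an unadjusted p under 0.05, the 2 most abundant members of a described list, and up to 3 with the widest range where 1 tumor stood apart. Mavs, Dnajc3, Pdia6, Cd68, Cd3e, Cd3d, Cd8a, Cd4, Trpm1, Rab27a, Mc1r, Asns, Slc30a1, Adm, P4ha1, Ctsa, Lipa, Igkj1, Gm23201 and Snord23 fall outside this rule and were named after their values were seen. Alternatives were a pseudocount of 0.1, other filters, quantile and upper-quartile scaling, the 6 tumors alone, no trend, a replicate block, and each tumor left out in turn.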

Additional observations from a re-analysis of the deposited data

How the results depend on the processing

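Every alternative run gave 0 adjusted calls in PS473@NKMOF-101-[Mn] against NKMOF-101-[Mn]. The comparison with M5@NKMOF-101-[Mn] and the interaction were refitted only with a pseudocount of 0.1, quantile normalization, a replicate block and each of their own tumors left out, with 0 as well. The count past an unadjusted p of 0.05 and a fold of 2, 37 in the reported fit, was 63 with a pseudocount of 0.1 and 25 with quantile normalization, and 86 without both skin-rich tumors. With each tumor left out it ranged from 20 without NKMOF-101-[Mn] tumor 1 to 141 without PS473@NKMOF-101-[Mn] tumor 2, with 93 without PS473@NKMOF-101-[Mn] tumor 1 and 23 without tumor 3, and 12 of the 37 genes were shared at the lowest count. The direction of Cd274 ranged from -0.19 without PS473@NKMOF-101-[Mn] tumor 2 to 0.64 without tumor 3, and was -0.23 without both skin-rich tumors. TrnK ranged from -0.17 without PS473@NKMOF-101-[Mn] tumor 3, its only high tumor, to 2.89 without tumor 1. The causes were not tested. Same-numbered tumors deviated in opposite directions (r of -0.43, -0.43 and -0.18), so these values show no pairing by number. They cannot exclude one, since both skin-rich tumors, which bear different numbers, gave r of 0.46 and tissue content could mask it. A replicate block gave 40 genes in place of 37 and 0 adjusted calls. Groups of 3 and the depth limit weakly expressed genes.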
